A study of Caenorhabditis elegans with 12 samples.

Results

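The genes that changed in the same direction in 2 alleles of *set-2* were sought in RNA-seq of whole *C. elegans* mid-embryos. All 12 libraries of the series entered 1 comparison, 6 from *set-2* mutants and 6 from the wild-type strain N2, with the experiment as a block, and each gene was also compared with the N2 of its own experiment. In experiment 1, 3 libraries of *set-2(tm1630)*, a deletion of the 5′ end of the gene that removes the start codon, were sequenced beside 3 of N2. In experiment 2, 3 libraries of *set-2(zr2012)*, in which CRISPR was used to substitute an amino acid of the catalytic SET domain, were sequenced beside 3 of N2. Embryos of every group were left at 20°C for 4 h after bleaching, and mutant and N2 embryos were prepared in parallel. Both mutant strains had been backcrossed, and *zr2012* was made by injecting *pha-1(e2123)* animals, so each allele stands for 1 line. In RNA of whole embryos, fewer cells of a type and less RNA per cell cannot be told apart.

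SET-2 is the *C. elegans* counterpart of the SET1 (KMT2F/G) methyltransferases. Within the COMPASS complex these enzymes place methyl groups on lysine 4 of histone H3 (H3K4), and trimethylated H3K4 sits at the start of transcribed genes. In the worm SET-2 is the main source of this mark in embryos, and loss of the gene is known for defects in germ line maintenance and in neurons. Genes that move in both alleles are of use in such a study because the alleles differ in type of lesion, in strain history and in the N2 libraries they are set against.

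The libraries held 14651380 to 53080992 counts. Pairs of libraries correlated across genes (Pearson, on log2 CPM, counts scaled by TMM to a common library size) at 0.974 to 0.989 within *tm1630*, 0.884 to 0.922 within the N2 of experiment 1, 0.993 to 0.995 within *zr2012* and 0.937 to 0.995 within the N2 of experiment 2. In the N2 of experiment 2, replicates 1 and 2 correlated at 0.995, and replicate 3 with them at 0.937 and 0.939. The chi-square of count differences per degree of freedom, near 1 for counting noise alone, was 2.42 for replicates 1 and 2. It was 235 and 202 for these against replicate 3, and 4.39 to 15.9 within *zr2012*. Replicates 1 and 2 were thus nearly alike, and whether they are separate preparations was not tested. If they are not, the N2 of experiment 2 holds fewer than 3 independent libraries. The p-values, separated groups and leave-out fits that rest on these libraries would then be less firm than they look. The row of *set-2* had 116, 12 and 97 counts in *tm1630* and 1, 11 and 44 in its N2, against 12, 13 and 10 in *zr2012* and 9, 13 and 17 in its N2, and its change was not called (log2 fold change 1.35 ± 0.63 (SE), adjusted p = 0.146 from edgeR's quasi-likelihood F test, Benjamini-Hochberg method). The count of the targeted gene therefore did not check the labels. Like many genes that also have rows for single transcripts in these tables, *set-2* was barely counted. Its 2 transcript rows were at 0 in every library, so its reads were not found there either. Of the protein-coding gene rows with such partners, 1350 of 1925 (70.1%) were at 0 in every library, against 561 of 17212 (3.26%) without. The regulators *hlh-1*, *elt-1* and *pha-4* (muscle, epidermis and pharynx) were at or near 0 and could not serve as markers. The regulators *elt-2* (intestine), *lin-26* (epidermis) and *unc-86* (neurons) were present in every library at 21.2 CPM or more, and the yolk genes of adults, *vit-2* and *vit-6*, stayed at or under 2.06 CPM.

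A count of 10 or more in 3 or more libraries of each experiment was met by 15637 genes, and 1846 of these (11.8%) passed an adjusted p of 0.05 over all genes tested. All 1846 had the same sign in both alleles, 681 (4.36% of the genes tested) higher in the mutants and 1165 (7.45%) lower. Over all genes tested, 8746 (55.9%) had the same sign in both alleles. A fit that gives both alleles 1 shared effect counts disagreement between them as spread, so agreement in sign is part of what the call asks for. The higher genes had a median log2 fold change of 1.73 in *tm1630* and 0.97 in *zr2012*, and the lower genes one of -1.65 and -0.73, beside -0.26 and -0.10 over all genes tested. The change was larger in *tm1630* for 75.2% of the higher and 88.6% of the lower genes.

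The genes were at different levels. The median higher gene had 10.4 CPM in mutants and 2.79 in N2, whereas the median lower gene had 11 CPM in mutants and 22.4 in N2. Of the higher genes, 538 (79.0%) had all 3 mutant libraries above all 3 N2 libraries in both experiments, and of the lower genes 619 (53.1%) had them below. Over all genes tested these separations were met by 5.03% and 5.86%, which includes the called genes. With each allele tested in its own experiment alone, 3 libraries against 3, 30.4% of genes passed for *tm1630* and 10.4% for *zr2012*. Of the 15637 genes above, 2086 were higher and 2592 lower in the separate fit of *tm1630*. In that of *zr2012* 835 were higher and 776 lower. Counts of list members in separate fits, given below, are to be read beside these numbers. In the separate fits 157 of the higher genes passed for both alleles, 72 for neither, and the rest for 1 of them. For lower genes these numbers were 205 and 161.

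**Figure D1:**
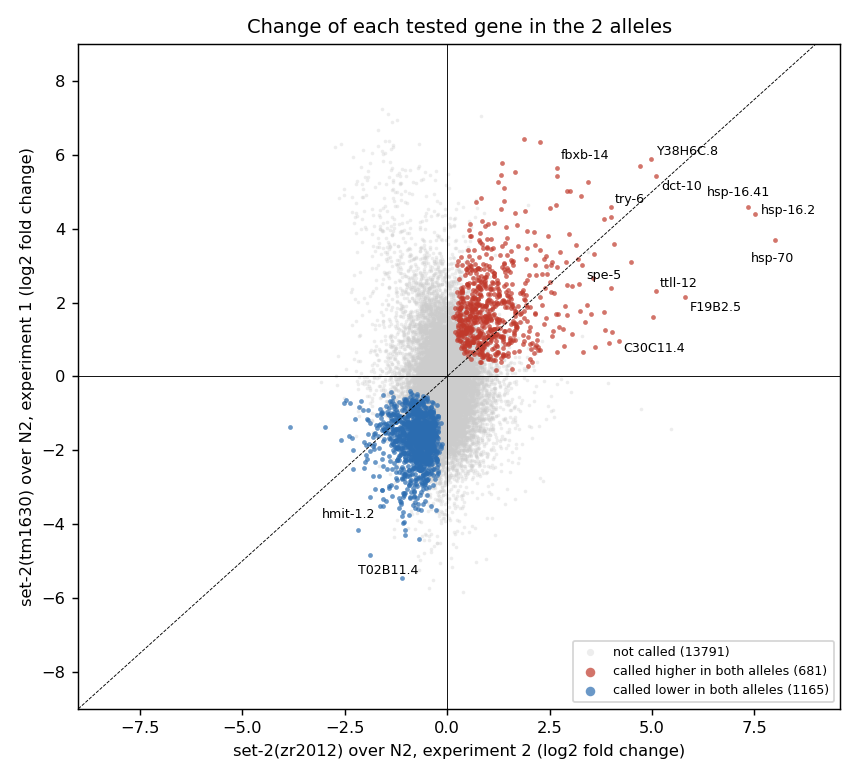
Log2 fold change of each of the 15637 genes tested in *set-2(tm1630)* over its N2 (vertical axis) against *set-2(zr2012)* over its N2 (horizontal axis), with called genes coloured and the dashed line marking equal change. Called genes lie in the upper right and lower left parts, as the call requires. Most lie on the *tm1630* side of the dashed line, and a group of heat shock genes at the far right lies on the *zr2012* side.

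How firmly a gene was called depended on single libraries. When each library was left out in turn, the number of called genes ran from 339 (without *tm1630* replicate 3) to 4595 (without N2 replicate 3 of experiment 2), and 5745 were called without both N2 libraries numbered 3. Calls that held in all 12 of these fits were made for 191 of the 681 higher genes and 107 of the 1165 lower genes. Genes of these smaller groups are described below as held in every leave-out fit, and a number such as 7 of 12 beside another called gene is the number of these fits that called it. The fits without a *tm1630* library called the fewest genes, 339 to 445.

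**Figure D2:**
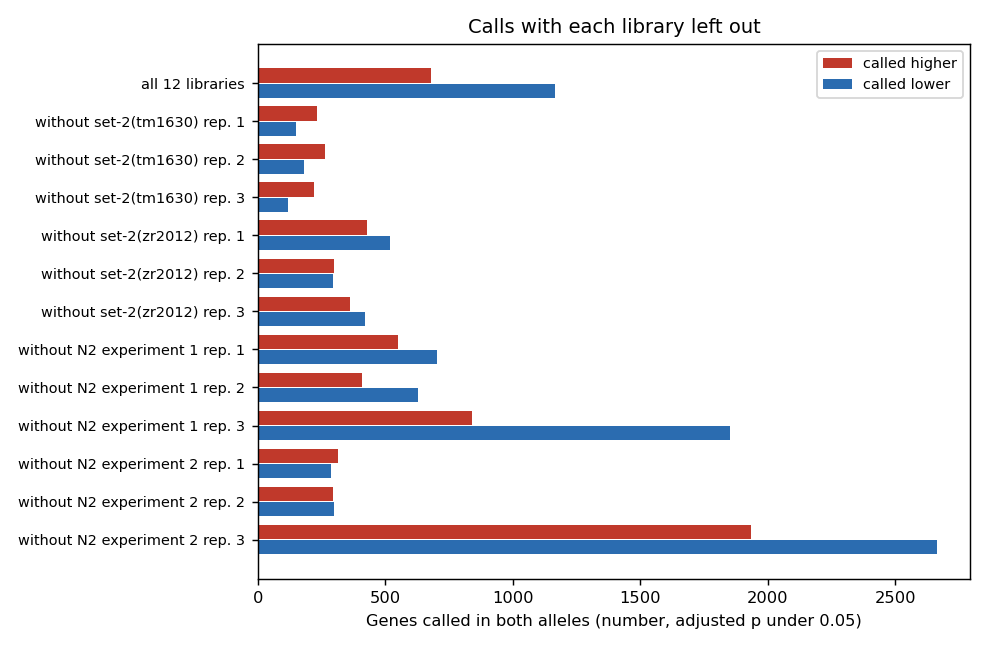
Number of genes called higher (red) and lower (blue) in both alleles, with all 12 libraries (681 and 1165) and with each library left out. Leaving out N2 replicate 3 of either experiment raised the numbers, to 1933 and 2662 in experiment 2, and leaving out any *tm1630* library took the lower genes to between 120 and 181.

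Of the genes named here, heat-inducible chaperones had the largest fold changes in the common fit and in *zr2012*. In *tm1630* *Y38H6C.8* (5.89), *fbxb-14* (5.64), *W04A8.9* (5.44) and *dct-10* (5.43), described further on, were among the genes above them. These proteins bind unfolded polypeptides, and in the worm many are switched on by the heat shock factor HSF-1. Of the 50 measured members of a list of heat shock and unfolded protein genes, 11 rose in both alleles (22.0%, against 4.36% over all genes tested) and none fell, and 7 of the 11 held in every leave-out fit. The median of the whole list was 0.30, beside -0.14 over all genes tested. It was 0.55 in *tm1630* and 0.037 in *zr2012*, beside -0.26 and -0.10 over all genes tested. In the separate fits 13 members were higher and 3 lower in *tm1630*, and 13 were higher and 3 lower in *zr2012*. These equal counts stand beside unequal ones over all 15637 genes tested. There 2086 were higher and 2592 lower in *tm1630*, and 835 higher and 776 lower in *zr2012*.

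The small heat shock gene *hsp-16.2* had 390, 463 and 366 CPM in *tm1630*, against 43.4, 3.58 and 9.51 in its N2. It had 7441, 8596 and 8277 CPM in *zr2012*, against 18.7, 18.7 and 94.7 in its N2. No mutant library came near an N2 library, and the highest N2 values were in replicate 1 of experiment 1 and replicate 3 of experiment 2. The log2 fold change was 5.98 ± 0.89 (SE) in the common fit, 4.40 in *tm1630* and 7.52 in *zr2012* (adjusted p = 0.00318, edgeR). Its neighbour *hsp-16.41*, a small heat shock gene of the same cluster, followed it library by library. It had 478, 758 and 436 CPM in *tm1630* against 59.6, 3.50 and 4.91 in N2, and 8396, 9036 and 8910 CPM in *zr2012* against 23.7, 23.7 and 114 in N2 (log2 fold change 5.99 ± 0.93, adjusted p = 0.00449). The 4 other rows of this family, *hsp-16.1*, *hsp-16.11*, *hsp-16.48* and *hsp-16.49*, were at 0 in all 12 libraries, and how reads shared between copies were counted is not stated.

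The inducible HSP70 gene *hsp-70* had 43.6, 53.8 and 42.4 CPM in *tm1630*, against 4.92, 1.2 and 4.43 in its N2. In *zr2012* it had 1740, 2187 and 1930 CPM, against 6.22, 6.45 and 10.1 in its N2. The groups did not overlap in either experiment (log2 fold change 5.89 ± 0.86, adjusted p = 0.00318), and the rise was larger in *zr2012* (8.01) than in *tm1630* (3.70), a difference between the 2 changes that passed its test (adjusted p = 0.00189, edgeR). Each allele was sequenced in 1 experiment, so allele and experiment cannot be told apart in any such difference.

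Chaperones that embryos express at high level also rose, by smaller factors. The HSP90 gene *daf-21* had 8486, 10254 and 8386 CPM in *tm1630* against 2830, 2520 and 4967 in N2, and 7362, 8264 and 8314 CPM in *zr2012* against 2557, 2630 and 2405 in N2 (log2 fold change 1.53 ± 0.25, adjusted p = 0.00568). Its rise was of similar size in both alleles, 1.36 and 1.68. The constitutive HSP70 gene *hsp-1* rose by 0.72 in *tm1630* and 2.21 in *zr2012*, and the DnaJ co-chaperone gene *dnj-19* by 0.77 and 1.37. In the separate fit of *tm1630* none of *daf-21* (adjusted p = 0.0659, edgeR), *hsp-1* (0.173) and *dnj-19* (0.141) passed, and in that of *zr2012* each did. *hsp-4*, the BiP chaperone of the endoplasmic reticulum, had 751, 889 and 773 CPM in *tm1630* against 159, 231 and 294 in N2, and 439, 503 and 534 CPM in *zr2012* against 152, 155 and 164 in N2 (log2 fold change 1.73 ± 0.19, adjusted p = 0.000747).

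The other called members were *C30C11.4*, an HSP110 gene (10 of 12), and the DnaJ genes *dnj-12* (9 of 12), *dnj-15* (6 of 12) and *dnj-26* (1 of 12). In the separate fit of *tm1630* *C30C11.4* (adjusted p = 0.0793, edgeR) and *dnj-12* (0.189) did not pass, whereas *dnj-15* and *dnj-26* did. In that of *zr2012* *dnj-15* (0.132) and *dnj-26* (0.228) did not pass, whereas *C30C11.4* and *dnj-12* did. *hsf-1* itself had a log2 fold change of 0.06 (adjusted p = 0.835), the second BiP gene *hsp-3* one of -0.03 (adjusted p = 0.947), and the mitochondrial chaperone genes *hsp-6* and *hsp-60* values of -0.32 and -0.71 (adjusted p = 0.38 and 0.148), so none of these was called. The HSP40 gene *dnj-13* shows how unequal the alleles could be. It had 253, 182 and 225 CPM in *tm1630* against 204, 273 and 244 in N2, but 1345, 1445 and 1464 CPM in *zr2012* against 67.8, 72.0 and 422 in N2, and it was not called (adjusted p = 0.147).

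Partners of HSP70 and HSP90 outside the list, picked after their values were seen, moved the same way. *bag-1*, a nucleotide exchange factor of HSP70, had a log2 fold change of 1.74 ± 0.23 (adjusted p = 0.00197), and *sti-1*, which links HSP70 to HSP90, one of 1.52 ± 0.26 (adjusted p = 0.00721). The HSP90 co-chaperone *fkb-6* had 1.60 ± 0.32 (adjusted p = 0.0136) and the arsenite-inducible *aip-1* 1.53 ± 0.20 (adjusted p = 0.00207), and these 4 held in every leave-out fit. All 4 passed in the separate fit of *zr2012*. In that of *tm1630* *bag-1* and *aip-1* passed, but *sti-1* (adjusted p = 0.0579, edgeR) and *fkb-6* (0.12) did not. The 5 subunit genes of the cytosolic chaperonin CCT that could be tested, *cct-1*, *cct-2*, *cct-3*, *cct-4* and *cct-8*, were all called higher, with a median of 0.56 in *tm1630* and 0.86 in *zr2012*. Of these *cct-2* held in every leave-out fit, *cct-8* in 7 of 12, *cct-1* and *cct-4* in 3 and *cct-3* in 2. In *tm1630* alone none of the 5 passed (adjusted p = 0.166 to 0.37), and in *zr2012* alone all did. Also chosen after the fact, *ttll-12*, a tubulin tyrosine ligase-like gene, rose by 2.33 in *tm1630* and 5.10 in *zr2012*, and *F19B2.5* by 2.16 and 5.81, so both were larger in *zr2012*, as *hsp-70* was.

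Summed over the list, heat shock genes took 28790 to 31500 CPM in *tm1630* against 13630 to 24440 in its N2, and 43930 to 49650 CPM in *zr2012* against 12850 to 17030 in its N2. The groups were apart in both experiments, and leaving out 1 library gave between 7 called members (without N2 replicate 1 or 2 of experiment 2) and 15 (without N2 replicate 3 of that experiment).

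**Figure D3:**
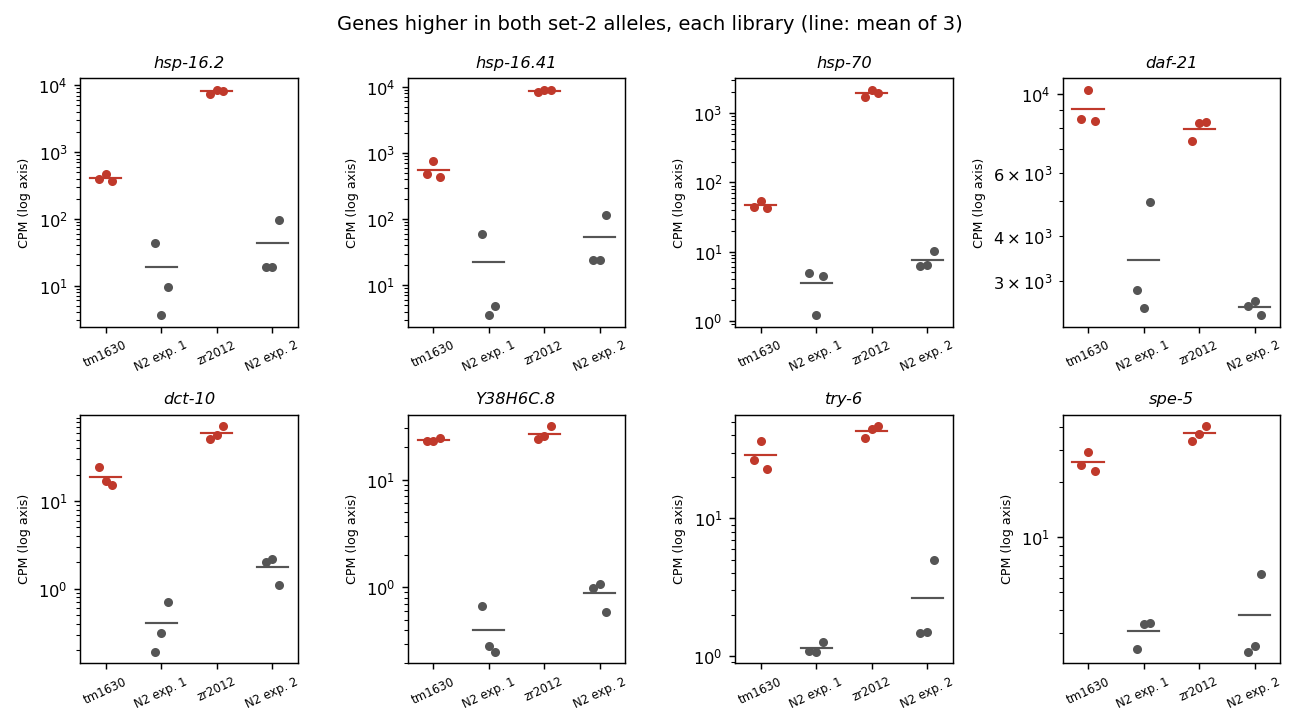
CPM (log axis) in each library of 8 genes that rose in both alleles, with mutant libraries in red left of the N2 libraries of the same experiment in grey and lines at the mean of 3. In each panel the 3 mutant libraries lie above the 3 N2 libraries in both experiments. The heat shock genes *hsp-16.2*, *hsp-16.41* and *hsp-70* are higher in *zr2012* than in *tm1630*, while *Y38H6C.8* is at 22.6 to 24.4 CPM in *tm1630* and 23.7 to 31.2 in *zr2012*.

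Outside the chaperones, large rises were found in genes at a few CPM or less in N2. Genes were ranked by the smaller of their 2 allele effects among 317 that rose, averaged 100 counts or more and had separated groups in both experiments. The separation of the ranked genes is therefore no finding. A gene with few counts in N2 reaches such an average only through its mutant libraries. A low N2 level beside a large rise is thus partly what the ranking selects. First came *dct-10*, annotated as a pseudogene, with 24.5, 16.8 and 15.3 CPM in *tm1630* against 0.189, 0.314 and 0.712 in N2, and 50.6, 56.7 and 71.2 CPM in *zr2012* against 2.03, 2.21 and 1.11 in N2. Its log2 fold change was 5.25 ± 0.35 (adjusted p = 8.47e-06, edgeR). Second was the protein-coding gene *Y38H6C.8*, with 23.1, 22.6 and 24.4 CPM in *tm1630* against 0.663, 0.288 and 0.250 in N2, and 23.7, 25.3 and 31.2 CPM in *zr2012* against 0.982, 1.06 and 0.587 in N2 (5.40 ± 0.34, adjusted p = 8.47e-06).

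These 2 genes are neighbours among the genes tested on chromosome V in the RefSeq annotation of assembly WBcel235, with a pseudogene that was not tested, *Y38H6C.7*, between them. Of the nearest tested genes on either side, *dct-14* had -0.32 (adjusted p = 0.525) and the pseudogene *fbxa-149* -0.42 (adjusted p = 0.192), and neither was called. The gene after *fbxa-149*, *Y38H6C.25*, was not called either (2.14, adjusted p = 0.0616) and had 0.481, 1.72 and 0.974 CPM in *tm1630* against 0.0947, 0.0523 and 1.19 in N2, and 2.07, 1.65 and 2.54 CPM in *zr2012* against 0.327, 0.212 and 0.113 in N2. Without N2 replicate 3 of experiment 1, the library at 1.19, *Y38H6C.25* was called (3.44, adjusted p = 0.00214), as it was in DESeq2 (2.24, adjusted p = 0.00687) and limma voom (2.68, adjusted p = 0.022).

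The protease-like gene *try-6* had 26.5, 36.7 and 22.7 CPM in *tm1630* against 1.09, 1.07 and 1.27 in N2, and 38.4, 44.3 and 46.4 CPM in *zr2012* against 1.47, 1.49 and 5.02 in N2 (4.31 ± 0.35, adjusted p = 5.89e-05). *R11A5.3* rose by 3.31 and 3.59 in *tm1630* and *zr2012*, and *F01D5.7* by 2.67 and 3.56. The F-box gene *fbxb-14* rose by 5.64 and 2.67, a difference between alleles that passed its test (adjusted p = 0.0213), and *W04A8.9* by 5.44 and 2.68 (adjusted p = 0.0514 for the difference). The snoRNA row *C17D12.8*, which lies within the span of *pcmd-1* in the same annotation, rose by 5.03 and 2.92, and reads of the host gene and of the snoRNA cannot be told apart here. All 12 of the genes ranked this way, the 3 heat shock genes and *spe-5* among them, held in every leave-out fit.

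Genes of sperm and of the germ line were the next group to rise. Sperm proteins are made in the adult and larval germ line, and P granules are RNA-rich bodies that mark germ cells from the first division on. Of 23 measured members of a list of adult yolk and sperm genes, 6 rose (26.1%, against 4.36% over all genes tested) and none fell, and the list summed to 178.1 to 187.5 CPM in *tm1630* against 109.4 to 152.8 in its N2 and to 198.1 to 206 CPM in *zr2012* against 125.5 to 142.7 in its N2.

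The clearest was *spe-5*, a vacuolar ATPase subunit gene needed in spermatogenesis. It had 24.9, 29.2 and 23.2 CPM in *tm1630* against 2.46, 3.35 and 3.41 in N2, and 33.8, 37.0 and 40.4 CPM in *zr2012* against 2.36, 2.55 and 6.33 in N2 (3.18 ± 0.28, adjusted p = 9.61e-05). *spe-4*, a presenilin-like gene of sperm organelles, stayed low throughout, with 0.820, 0.716 and 0.731 CPM in *tm1630* against 0.142, 0.314 and 0.424 in N2, and 2.64, 2.42 and 2.44 CPM in *zr2012* against 0.491, 0.340 and 0.249 in N2 (2.07 ± 0.37, adjusted p = 0.00841). *Y23H5A.4* held in every leave-out fit with them, and *spe-19* in 5 of 12. The number called ran from 3 (without any *tm1630* library, N2 replicate 1 or 2 of experiment 2, or *zr2012* replicate 2 or 3) to 8 (without N2 replicate 3 of experiment 2). The yolk genes of adults, *vit-2* and *vit-6*, were at or under 2.06 CPM in each library.

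Of 38 germ line and P granule genes, 5 rose (13.2%, against 4.36%) and none fell. Most of the change in this list was in *tm1630*, where 19 members were higher in the separate fit and the median was 1.75, whereas in *zr2012* 1 was higher and the median was -0.11. The list summed to 2432 to 2848 CPM in *tm1630* against 645.4 to 1445 in its N2, and to 1153 to 1168 CPM in *zr2012* against 836.7, 866.4 and 1603 in its N2, the last being replicate 3. The sums of *zr2012* therefore lay within the range of their N2. *hrde-1*, a nuclear Argonaute of inherited small RNAs, had 76.8, 57.9 and 70.0 CPM in *tm1630* against 6.25, 16.6 and 15.8 in N2, and 52.1, 53.1 and 57.3 CPM in *zr2012* against 15.4, 16.8 and 36.5 in N2 (1.82 ± 0.33, adjusted p = 0.00964). *pgl-2*, a P granule protein gene, rose by 1.97 in *tm1630* and 1.08 in *zr2012* (adjusted p = 0.00369), and both held in every leave-out fit.

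The Vasa-like helicase gene *glh-1* (held in 7 of 12), the Piwi gene *prg-1* (4 of 12) and the RNA-dependent RNA polymerase gene *ego-1* (1 of 12) were the others, and their calls were lost whichever *tm1630* library was left out. For *prg-1* and *ego-1* the alleles differed, with 1.96 and 2.31 in *tm1630* but 0.35 and 0.36 in *zr2012*. Of 27 meiosis genes 5 rose (18.5%) and none fell. In the separate fits 19 were higher in *tm1630* (median 1.94) and 2 in *zr2012* (median -0.0039). The crossover factor *cosa-1* (5 of 12) had 0.74 in *tm1630* and 0.86 in *zr2012*, and the synaptonemal complex gene *syp-3* (4 of 12) 2.68 and 0.76. The others were *coh-4* (10 of 12), *pch-2* (3 of 12) and *zim-3* (1 of 12). Without *tm1630* replicate 1 or 3 no meiosis gene was called, and without N2 replicate 3 of experiment 2 there were 17, beside 18 of the germ line list.

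Genes of dividing cells moved beside the germ line lists in *tm1630*. DNA replication genes, which are most active in the early embryo, summed to 7301 to 8096 CPM in *tm1630* against 897.5 to 2446 in its N2, and to 1130 to 1253 CPM in *zr2012* against 955.6, 1012 and 3711 in its N2. The highest value of each N2 group was that of replicate 3. In the separate fit of *tm1630* 35 of the 41 measured members were higher, in that of *zr2012* none, and the alleles differed for 33. In the common fit 1 member, the nuclease gene *exo-1* (11 of 12), was called, but 29 were called without N2 replicate 3 of experiment 2.

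Likewise 1 early embryo RNA of 57, the chitin synthase gene *chs-1* (4 of 12), rose in both alleles and 1, *sdz-38* (4 of 12), fell, although 37 were higher in the separate fit of *tm1630*. The corresponding numbers were 2 higher (*cls-2*, a CLASP microtubule protein, and *lin-35*, the Rb counterpart, called in 2 of 12) of 77 for the cell cycle and 1 higher (*rtel-1*, 3 of 12) of 41 for DNA repair. Without N2 replicate 3 of experiment 2 these numbers were 26 for early embryo RNAs, 39 for the cell cycle and 11 for DNA repair. *cls-2* held in every leave-out fit, with 304, 283 and 277 CPM in *tm1630* against 102, 153 and 169 in N2, and 273, 324 and 285 CPM in *zr2012* against 89.4, 92.5 and 124 in N2 (1.28 ± 0.19, adjusted p = 0.00371). The part of embryo stage in these lists was not tested.

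Among lower genes, regulators of neuronal identity were the list with the largest share called. These transcription factors, many of them homeodomain proteins, set the type of a neuron as it is born and keep it afterwards. Of 36 measured members 19 fell in both alleles (52.8%, against 7.45% over all genes tested) and none rose. In the separate fits 18 were lower in *tm1630* and 14 in *zr2012*. The median was -1.36 in *tm1630* and -0.74 in *zr2012*, beside -0.26 and -0.10 over all genes tested. The number ran from 8 (without *tm1630* replicate 1 or 3) to 21 (without N2 replicate 3 of experiment 2), and 8 members held in every leave-out fit (*ceh-6*, *unc-86*, *unc-42*, *vab-7*, *zag-1*, *ceh-10*, *mab-5* and *ast-1*).

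The POU homeobox gene *ceh-6* had 10.9, 11.3 and 10.2 CPM in *tm1630* against 32.4, 39.7 and 28.7 in N2, and 14.7, 14 and 14.7 CPM in *zr2012* against 42.3, 39.5 and 32.0 in N2. The groups were well apart in both experiments (log2 fold change -1.51 ± 0.17, adjusted p = 0.000819, edgeR), with -1.68 in *tm1630* and -1.37 in *zr2012*. *unc-86*, the POU factor of touch and other neurons, had 38.1, 31.8 and 42.3 CPM in *tm1630* against 73.2, 130 and 79.8 in N2, and 54.1, 56.0 and 47.3 CPM in *zr2012* against 114, 118 and 108 in N2 (-1.22 ± 0.18, adjusted p = 0.00322).

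*unc-42*, a paired-like homeobox gene of command interneurons and others, had 22.1, 23.3 and 32.0 CPM in *tm1630* against 70.1, 116 and 64.4 in N2, and 44.1, 47.5 and 39.5 CPM in *zr2012* against 94.6, 92.9 and 93.5 in N2 (-1.39 ± 0.21, adjusted p = 0.00318). The zinc finger homeobox gene *zag-1* had 52.2, 50.6 and 62.0 CPM in *tm1630* against 108, 274 and 148 in N2, and 91.3, 95.5 and 79.8 CPM in *zr2012* against 177, 178 and 158 in N2 (-1.31 ± 0.24, adjusted p = 0.0102). In each of these genes N2 replicate 2 of experiment 1 was the highest of its group, and the N2 libraries of experiment 2 lay close together.

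*ast-1*, an ETS factor of dopaminergic neurons, fell by 2.11 on the log2 scale in *tm1630* and by 0.78 in *zr2012*, a difference that passed its test (adjusted p = 0.0331). The even-skipped counterpart *vab-7*, the Chx10-like *ceh-10* and the Hox gene *mab-5* had -1.93, -1.62 and -1.31 in *tm1630* and -1.05, -0.82 and -0.80 in *zr2012*. The family of *ceh* homeobox genes, counted after these values were seen, had 16 lower and 2 higher of 57 measured, and the nuclear hormone receptor genes, also counted afterwards, 33 lower and 1 higher of 189. In the 2 families the medians were -0.55 and -0.51, beside -0.14 over all genes tested, of which 7.45% were called lower and 4.36% higher.

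**Figure D4:**
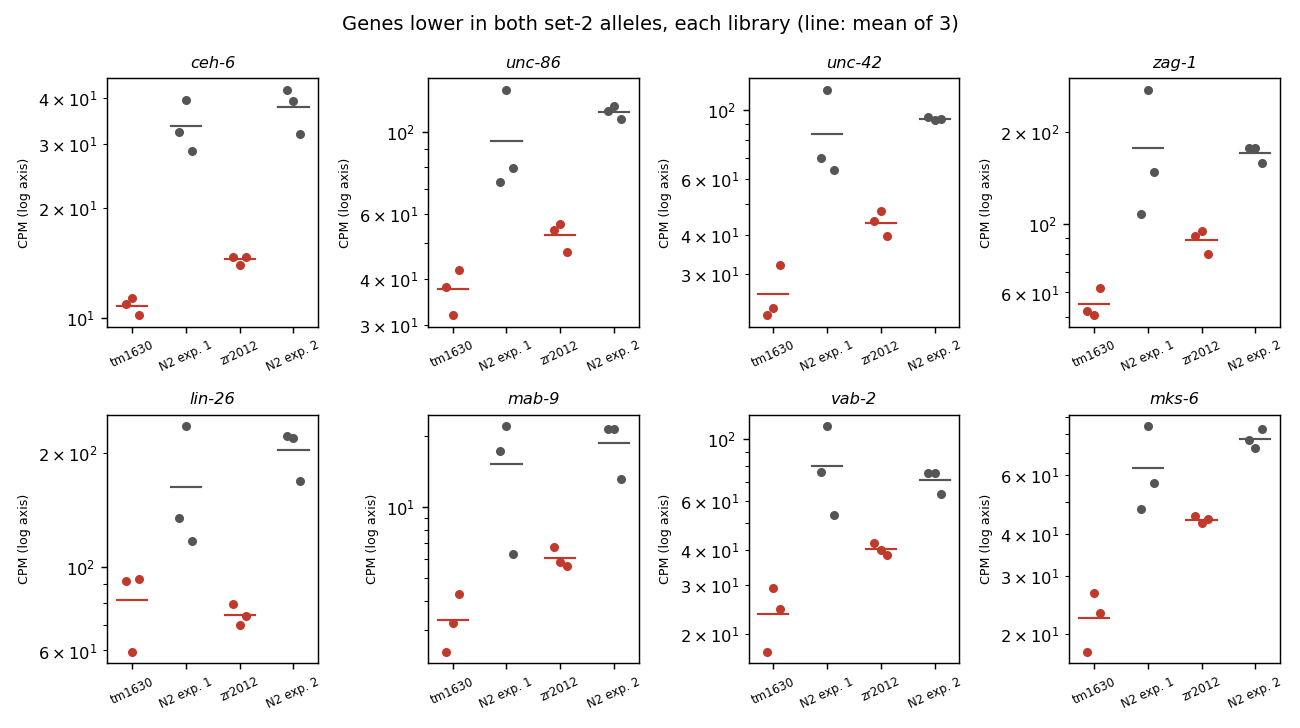
CPM (log axis) in each library of 8 genes that fell in both alleles, with mutant libraries in red left of the N2 libraries of the same experiment in grey and lines at the mean of 3. In each panel the mutant libraries lie below the N2 libraries in both experiments. The N2 of experiment 1 has the widest spread, as for *zag-1* at 108 to 274 CPM.

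The same ranking that led to *dct-10* was applied to 537 lower genes, and its first 12 were mostly expressed at a few CPM. *efhc-1* (*Y49A10A.1* in the files) had 0.961, 1.65 and 1.22 CPM in *tm1630* against 5.68, 6.38 and 2.39 in N2, and 2.56, 2.45 and 2.82 CPM in *zr2012* against 11.8, 11.5 and 4.27 in N2 (-1.87 ± 0.33, adjusted p = 0.00862). The basic helix-loop-helix gene *hlh-34* had 2.6, 1.79 and 2.37 CPM in *tm1630* against 5.73, 8.55 and 7.01 in N2, and 2.39, 2.27 and 2.13 CPM in *zr2012* against 9.07, 6.28 and 4.61 in N2 (-1.60 ± 0.24, adjusted p = 0.00369). The ranking took only genes whose groups were apart in each experiment, so their separation is no finding. N2 replicate 3 was the lowest N2 library of experiment 2 for both.

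The myo-inositol transporter gene *hmit-1.2* fell by 3.52 on the log2 scale in *tm1630* and by 1.56 in *zr2012*, the aspartyl protease gene *asp-14* by 1.52 and 1.45, *T28H11.8* by 2.44 and 1.56 and *F07H5.6* (now *idpa-2*) by 2.50 and 1.46. These 4, *efhc-1*, *hlh-34* and *mab-9* held in every leave-out fit. *W07A12.8* (11 of 12), *F44G4.7* (10), *C54F6.3* (9), *fbxb-43* (7) and *T02B11.4* (6) made up the 12, and *T02B11.4* had -4.84 in *tm1630*, where it was at 0.0565 to 0.365 CPM against 0.836 to 13.1 in N2.

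In the lists of other tissues the share called lower in both alleles was above the 7.45% of all genes tested in the pharynx (45%). It was under 7.45% in the epidermis (4.88%), muscle (5.41%) and intestine (7.14%). In the separate fits 19 of 41 epidermal and 18 of 37 muscle genes were lower in *tm1630*, against 2 and 1 in *zr2012*. In *zr2012* 2 epidermal genes and 1 muscle gene were higher. The epidermal median was -1.48 in *tm1630* and 0.18 in *zr2012*. The low shares of both lists therefore do not mean that they stayed level in *tm1630*. *lin-26*, which is needed for epidermal fate, had 91.8, 59.4 and 92.8 CPM in *tm1630* against 134, 235 and 117 in N2, and 79.8, 70.1 and 73.8 CPM in *zr2012* against 221, 219 and 169 in N2 (-1.22 ± 0.22, adjusted p = 0.00912). It was 1 of 2 lower members of 41 epidermal genes, beside the moulting gene *mlt-10* (5 of 12). With 1 library left out, 1 to 7 epidermal genes were called lower. In the pharynx list 9 of 20 members fell and none rose, and the 2 that held in every leave-out fit were the NK-2 homeobox gene *ceh-24* (-1.84 in *tm1630* and -1.32 in *zr2012*) and the T-box gene *tbx-2* (-1.52 and -0.88). Without a *tm1630* library or N2 replicate 1 or 2 of experiment 2 these were the 2 pharynx genes called, and without N2 replicate 3 of experiment 2 there were 15.

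The T-box gene *mab-9* had 2.43, 3.22 and 4.26 CPM in *tm1630* against 17.1, 21.9 and 6.33 in N2, and 6.74, 5.84 and 5.61 CPM in *zr2012* against 21.3, 21.4 and 13.2 in N2 (-1.90 ± 0.31, adjusted p = 0.00633). In muscle 2 of 37 members fell, the SRF-like factor *unc-120* (11 of 12, lost without *tm1630* replicate 1, adjusted p = 0.0506) and the troponin C gene *pat-10* (2 of 12). The number for muscle ran from 0 (without *tm1630* replicate 1) to 14 (without N2 replicate 3 of experiment 2). Of 42 intestinal genes 3 fell, *cpr-4* (3 of 12), *ifc-1* (4 of 12) and *gst-4* (11 of 12). In *tm1630* the ranges of *cpr-4*, *ifc-1* and *ceh-24* overlapped those of N2, and those of *zr2012* did not.

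Genes that neurons use after they have formed fell as well, but the 2 alleles were less alike and the calls less stable. Cilia of sensory neurons are built by intraflagellar transport and gated by a transition zone at their base. Of 48 cilium genes 23 fell (47.9%, against 7.45%) and none rose. In the separate fits, whose counts can overlap, 40 were lower in *tm1630* and 8 in *zr2012*. Of all 15637 genes tested 2592 and 776 were. With 1 library left out, the number called in the common fit ran from 1 (without *tm1630* replicate 1 or 3) to 38 (without N2 replicate 3 of experiment 2). The transition zone gene *mks-6* held in every such fit, with 17.7, 26.5 and 23.1 CPM in *tm1630* against 47.6, 84.2 and 57.0 in N2, and 45.2, 43.0 and 44.3 CPM in *zr2012* against 76.8, 72.4 and 82.7 in N2 (-1.15 ± 0.21, adjusted p = 0.00882). Other transition zone genes such as *mks-2* and *T23E7.5* (now *tmem-218*) held in 8 and 9 fits, lost without any 1 of the *tm1630* libraries and, for *mks-2*, also without N2 replicate 1 of experiment 2.

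Of 44 synaptic genes 15 fell (34.1%, against 7.45%) and none rose. In the separate fits 30 were lower in *tm1630* and none higher, but in *zr2012* 1 was lower and 1 higher, and the medians were -1.55 and -0.34. Without any 1 of the *tm1630* libraries none was called, and without N2 replicate 3 of experiment 2 there were 26. The glutamate receptor gene *glr-1* had 6.93, 10.3 and 8.86 CPM in *tm1630* against 44.8, 64.8 and 13.5 in N2, and 51.9, 43.9 and 46.8 CPM in *zr2012* against 111, 108 and 72.3 in N2 (-1.63 ± 0.36, adjusted p = 0.0192). The acetylcholine receptor subunit gene *unc-38* fell with it by 1.64 on the log2 scale in *tm1630* and by 0.90 in *zr2012*. No synaptic gene held in every leave-out fit: without any *tm1630* library *glr-1* and *unc-38* had adjusted p between 0.058 and 0.0637. Neuropeptide genes had 13 lower and 1 higher of 100, and 44 lower without N2 replicate 3 of experiment 2, but 0 without a *tm1630* library, without N2 replicate 1 or 2 of experiment 2 or without *zr2012* replicate 2. The higher one was *nlp-25*, with 8.59, 5.01 and 6.39 CPM in *tm1630* against 1.18, 0.105 and 0.404 in N2, and 2.35, 2.21 and 3.17 CPM in *zr2012* against 0.0655, 0.212 and 0.181 in N2 (adjusted p = 0.00197), but it did not reach the count minimum with any *zr2012* library left out.

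Beside these neuronal lists, replication genes in *tm1630* were higher and genes of late embryos and larvae lower. Of the late genes 6 of 23 were called lower in both alleles (26.1%, against 7.45% over all genes tested). They were *gcy-23*, *gcy-8*, *ins-6*, *mec-7*, *rgef-1* and *tax-2*. The study used the promoter of *rgef-1* as a neuronal one, so the late list is not free of neuronal genes. Which of the other called members act in neurons was not sorted out. The share called in this list therefore cannot be told apart from the fall of neuronal genes. The late list summed to 337.8 to 394.9 CPM in *tm1630* against 965 to 1345 in its N2. In *zr2012* it summed to 829.1 to 841.6 CPM against 952.9 to 966.3 in its N2. In experiment 2 the replication sums of *zr2012* lay above those of N2 replicates 1 and 2 and below that of N2 replicate 3. The part of developmental timing in the lower lists was not tested.

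**Figure D5:**
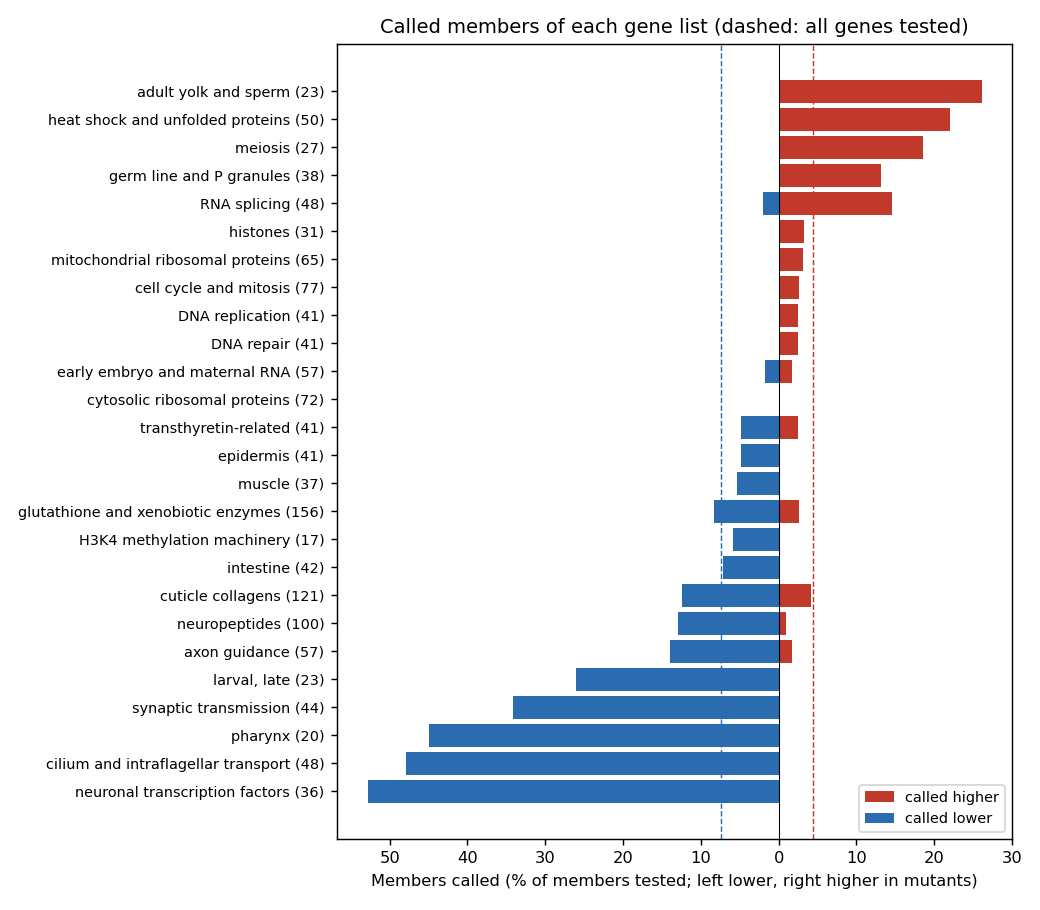
Share of the measured members of each of 26 gene lists called higher (right, red) and lower (left, blue) in both alleles, with the number measured in brackets and dashed lines at 4.36% and 7.45% for all genes tested. Adult yolk and sperm, heat shock, meiosis, germ line and splicing lists extend furthest to the right, and neuronal transcription factors, cilium, pharynx and synaptic lists furthest to the left.

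The study asked how SET-2 takes part in axon guidance, the steering of growing axons by secreted and membrane-bound cues. Of 57 measured guidance genes 8 fell in both alleles (14%, against 7.45%) and 1 rose, *enu-3* (7 of 12). In the separate fits 28 were lower and 1 higher in *tm1630*, where 2592 of all 15637 genes tested were lower and 2086 higher. In *zr2012* 7 were lower and 4 higher, where 776 of all genes tested were lower and 835 higher. The median was -1.26 in *tm1630* and -0.015 in *zr2012*, beside -0.26 and -0.10 over all genes tested. The number of lower members was 1 without any *tm1630* library and 12 without N2 replicate 3 of experiment 2. The ephrin gene *vab-2* was the member that held in every leave-out fit. It had 17.2, 29.1 and 24.6 CPM in *tm1630* against 75.9, 111 and 53.6 in N2, and 42.4, 40.1 and 38.5 CPM in *zr2012* against 75.7, 75.3 and 63.4 in N2 (-1.29 ± 0.25, adjusted p = 0.0114). The groups did not overlap.

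The others that fell were *unc-6* (netrin, 4 of 12), *efn-4* (a further ephrin, 5 of 12), *eva-1* (a Slit receptor component), *cle-1* (collagen XVIII, 1 of 12), *mig-6* (papilin), *unc-14* (2 of 12) and *unc-115* (3 of 12). *unc-6* had -2.22 in *tm1630* and -0.41 in *zr2012*, a difference that passed its test (adjusted p = 0.0135). *eva-1* and *mig-6* held in 9 of 12 fits and were lost without any 1 of the *tm1630* libraries. Of the receptors and effectors that the study followed genetically, none was called by edgeR in the common fit: *vab-1*, the Eph receptor, had -0.74 ± 0.37 (adjusted p = 0.17), the plexin *plx-2* -0.97 ± 0.40 (0.112), the netrin receptor *unc-5* -0.51 ± 0.34 (0.29), the syndecan *sdn-1* -0.50 ± 0.22 (0.137), the Robo receptor *sax-3* -0.59 ± 0.33 (0.21), the actin nucleation factor *wsp-1* -1.08 ± 0.33 (0.0516) and the GTPase *cdc-42* 0.26 ± 0.18 (0.313). Other fits called some of them lower. *wsp-1* was called in DESeq2 (adjusted p = 0.0157), without a count filter (0.0452), as the mean of both allele effects in a fit of 4 groups (0.0101), without N2 replicate 3 of experiment 1 (0.0382) or of experiment 2 (0.0172) and without both (0.00899). The fit of 4 groups also called *plx-2* (0.0209) and *sdn-1* (0.0428). The study lists the guidance genes it tested, other than *sax-3*, as lower in *tm1630*, which is a comparison of 1 allele. In edgeR's fit of *tm1630* alone *vab-1* (adjusted p = 0.0424), *plx-2* (0.0264), *unc-5* (0.0332) and *wsp-1* (0.0272) were lower. There *sdn-1* (0.0548) and *sax-3* (0.108) did not pass. In *zr2012* *unc-5* had 0.36 (adjusted p = 0.169, edgeR), with all 3 mutant libraries above N2.

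In single libraries the alleles were unlike. *vab-1* had 138, 154 and 146 CPM in *tm1630* against 165, 675 and 459 in N2, but 432, 462 and 425 CPM in *zr2012* against 388, 388 and 463 in N2. *wsp-1* had 6.30, 3.22 and 4.78 CPM in *tm1630* against 16.2, 23.5 and 8.51 in N2, and 22.3, 17.5 and 21.1 CPM in *zr2012* against 32.0, 31.2 and 19 in N2, with overlap in experiment 2. *unc-34*, *wve-1* and *nck-1* did not pass the count minimum.

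Of 17 genes of the H3K4 methylation machinery 1 was called, *wdr-5.2*, a paralogue of the WDR5 subunit of COMPASS, which fell by 1.01 on the log2 scale in *tm1630* and by 0.46 in *zr2012* and held in 5 of 12 fits. None of 72 cytosolic ribosomal protein genes was called by edgeR (2 lower at an unadjusted p under 0.05, 1 lower called by DESeq2 and 0 by limma voom), although N2 replicate 1 of experiment 1 had 291500 CPM in them where the other 11 libraries had 79240 to 159900. Of 65 mitochondrial ribosomal protein genes 2 rose (*mrpl-45*, 4 of 12, and *mrpl-50*, 2 of 12). Cuticle collagens had 15 lower and 5 higher of 121, glutathione and xenobiotic enzymes 13 lower and 4 higher of 156, transthyretin-related genes 2 lower and 1 higher of 41, and splicing genes 7 higher and 1 lower of 48. The splicing share of 14.6% higher was above the 4.36% of all genes tested, and the collagen share of 12.4% lower above 7.45%. Of the splicing genes 30 were higher in the separate fit of *tm1630* and none in that of *zr2012*.

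Histone genes were unlike in the 2 alleles. Of 31 measured, 18 were higher in the separate fit of *tm1630* and none in that of *zr2012*, where 4 were lower. The medians were 3.48 and -0.33, and the alleles differed for 18. In the common fit 1 was called, *his-18*, which had 2.88, 29.9 and 3.44 CPM in *tm1630* against 0.947, 0.235 and 0.193 in N2, and 0.690, 0.683 and 0.766 CPM in *zr2012* against 0.295, 0.127 and 0.362 in N2. *tm1630* replicate 2 was far above the other libraries, and the call held in 2 of 12 fits.

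Called genes were spread unevenly over chromosomes. On chromosome X 32 of 2193 genes tested rose (1.46%) and 250 fell (11.4%), and on chromosome V 3.74% rose and 8.53% fell. On chromosomes I and III 5.96% and 5.73% rose and 5.75% and 5.25% fell. The median change of X-linked genes was -0.73 in *tm1630* and -0.21 in *zr2012*, against -0.26 and -0.10 over all genes tested. Around *set-2* on chromosome III, 6 of the 45 tested genes among 25 on each side were called (13.3%, against 11.8% over all genes).

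Called genes also had called neighbours. In the order of the RefSeq annotation, the next tested gene was called in the same direction for 14.9% of the 623 higher genes and 12.7% of the 1051 lower genes with such a neighbour, where 4.54% and 7.65% of the ordered genes were called. There were 13 runs of 3 or more higher genes and 15 of lower genes. On chromosome I *spe-5* rose with its neighbours *chp-1* (0.74, 6 of 12) and *pas-3*, a proteasome subunit gene (0.82, 4 of 12). On chromosome V 4 nuclear hormone receptor genes in a row, *nhr-55*, *nhr-130*, *nhr-212* and *nhr-211*, fell by 0.65, 0.71, 0.78 and 0.89 on the log2 scale, but *nhr-55* was called in 2 of 12 leave-out fits and the other 3 in 4. How reads that overlap neighbouring genes were assigned is not given in the sources used here.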

How the data were processed

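RNA of *C. elegans* mid-embryos was sequenced from 3 libraries each of *set-2(tm1630)*, its N2, *set-2(zr2012)* and its N2, described as independent preparations. Groups were taken from the labels, and for *tm1630* replicate 3 the title was followed where its description gave another number. The authors deposited raw counts of reads per gene. The submitters' processing notes name Trimmomatic 0.36.0, HTSeq 0.9.1 and DESeq2 2.1.8.3, and reads were mapped to WS220/ce10 with up to 2 mismatches. How HTSeq treated strand, overlapping genes and repeated copies is not given in the sources used here. Tables held 45410 rows per library and 14651380 to 53080992 counts, and 3837 rows (8.45%) were named by transcript accessions.

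The 15637 genes that reached 10 counts in 3 or more libraries of each experiment were fitted with edgeR 4.0.16 in R 4.3.3 (TMM scaling, quasi-likelihood F test, experiment as block, Benjamini-Hochberg adjustment over all genes, threshold 0.05). A gene was called where it passed and both alleles had the same sign in separate fits of their own experiment. SE was derived from the fold change and F. The difference between alleles was tested in a fit of 4 groups. On simulated data with the same design (15312 genes), 12% of the 2-fold changes, 79.4% of the 4-fold and 93.6% of the 8-fold were recovered, with 4 false among 111 calls. In this simulation genes were drawn independently, 190 of those tested were changed, and each change was the same in both alleles. It held no shift shared by many genes and no difference between alleles. The shares recovered and the false calls therefore need not hold for the real libraries. A single gene taken alone in 3 against 3 libraries cannot go below an exact two-sided p of 0.1.

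Named genes were, in each direction, the 12 called genes with at least 100 counts on average and separated groups in both experiments that had the largest smaller allele effect. To these came genes followed in the study, up to 3 called genes of each of 26 lists by the same ranking, and members of counts of 5 or fewer. Members and lists were chosen with earlier results of these data known, and other genes are named as chosen after their values were seen, the other chaperones, the further neuronal regulators and the neighbours among them. Alternatives were DESeq2 1.42.0 and limma 3.58.1 (voom), other scalings, filters, blocks and thresholds, and each library left out. Chromosomes, neighbours and current names came from RefSeq (WBcel235), by symbol or locus tag for 41028 rows, and no coordinates were used because the builds differ.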

Additional observations from a re-analysis of the deposited data

Results flagged for a closer look

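For 33 of the 152 named genes tested in both experiments the change in *tm1630* differed from that in *zr2012* (adjusted p under 0.05 over all genes, edgeR), where 25.2% of all genes tested did, and 27 of the 33 were called. Values are the log2 fold change in *tm1630* minus that in *zr2012* from the fit of 4 groups. Each experiment has its own N2, so allele and experiment cannot be told apart. With 3 libraries a group, single libraries were not tested for lying apart.

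Among chaperones and genes named with them the rise was larger in *zr2012* for *hsp-70* (-4.27), *F19B2.5* (-3.61), *C30C11.4* (-3.20), *ttll-12* (-2.72), *hsp-1* (-1.44), *sti-1* (-1.27) and *cct-2* (-0.87), and the mitochondrial ribosomal gene *mrpl-50* (-0.95) joined them. For *dnj-15* (1.68) and *dnj-26* (1.59) it was larger in *tm1630*. *dnj-13* (-3.05), *hsp-60* (-1.46) and *hsp-6* (-1.29) were not called in both alleles together.

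The rise was larger in *tm1630* for *fbxb-14* (3.01), *ego-1* (2.00), *syp-3* (1.96), *cyp-31A2* (1.79), *prg-1* (1.67), *zim-3* (1.57), *exo-1* (1.53) and *rnp-3* (1.37). The fall was larger in *tm1630* for *cle-1* (-1.94), *unc-6* (-1.75), *mig-6* (-1.70), *unc-115* (-1.60), *T23E7.5* (-1.42), *ast-1* (-1.27), *pat-10* (-1.25), *mlt-10* (-1.01) and *gst-4* (-0.97). *plx-2* (-1.87), *unc-5* (-1.72) and *vab-1* (-1.66) differed in the same direction without a common call.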

How the results depend on the processing

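The number of called genes depended strongly on the fit. Against 1846 (681 higher, 1165 lower), the DESeq2 Wald test called 3720 (1393 and 2327), the mean of both allele effects in a fit of 4 groups 4252 (1440 and 2812), the fit without the experiment block 421 (282 and 139), an adjusted p under 0.01 164 (120 and 44), and both alleles past the threshold in their own fits 379 (157 and 222). limma voom called 836 higher and 717 lower, so that 46.2% of its calls were lower where 63.1% were in edgeR. With the replicate number as a block 69 genes were called (63 and 6). Same-numbered mutant and N2 libraries correlated in their deviations from group means at -0.279 to 0.0631, and those with unlike numbers at -0.282 to 0.374. Deviations from means of 3 libraries depend on each other, so these values cannot decide whether the numbers mark pairs. The labels do not say. Other scalings, filters and the removal of transcript rows (chosen after seeing the data) gave 1443 to 2034.

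Leaving out 1 library gave 339 (without *tm1630* replicate 3) to 4595 (without N2 replicate 3 of experiment 2) calls, 219 to 1933 higher and 120 to 2662 lower. Without both N2 libraries numbered 3, an alternative chosen after seeing the data, 5745 were called (2228 and 3517), with 21 neuronal transcription factors, 38 cilium and 29 synaptic genes lower and 13 heat shock genes higher. Under the replicate block 4 heat shock genes, 1 neuronal transcription factor and no cilium gene were called.

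No called gene among the named ones changed sign under any of these alternatives. The uncalled *hsp-3* did, at 0.013 both with DESeq2 size factors and in DESeq2, 0.13 in voom, 0.10 with the replicate block, 0.19 without both N2 libraries numbered 3 and -0.19 to 0.14 with 1 library left out, as did the uncalled *hsf-1* (-0.036 without N2 replicate 1 of experiment 1). On simulated data few genes changed 2-fold were recovered, so a gene that was not called may still have changed.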

Other observations

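Families counted by gene name, all chosen after their values were seen, also held genes called in both alleles. Of 70 measured long intergenic RNA genes (*linc*) 10 rose and none fell. Of 62 acetylcholine receptor and ligand-gated channel genes (*acr* and *lgc*) 16 fell and none rose, with a median of -1.35 in *tm1630* and -0.37 in *zr2012*. *acr-2*, which was 1 of the 16, is also among the synaptic genes counted above. Of 114 C-type lectin genes (*clec*) 15 fell and 4 rose. Over all genes tested 4.36% rose and 7.45% fell.

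The polycystin genes *pkd-2* and *lov-1*, which act in male-specific sensory neurons, rose against the direction of the cilium list. *pkd-2* had 0.989, 0.358 and 0.791 CPM in *tm1630* against 0.237, 0.340 and 0.385 in N2, and 2.96, 2.95 and 3.52 CPM in *zr2012* against 1.05, 1.15 and 0.904 in N2 (log2 fold change 1.40 ± 0.28, adjusted p = 0.0148, edgeR). *lov-1* rose by 1.29 in *tm1630* and 1.68 in *zr2012* (adjusted p = 0.0143). In *tm1630* the lowest *pkd-2* library lay within the range of N2.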
